A study of Homo sapiens with 4 samples.

Results

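Open chromatin of chromosome 11 was followed over 2617 regions, the regions of this chromosome at which a peak was called in each of 4 single-nucleus ATAC-seq libraries. Merging peaks with 1 bp or more in common gave 128195 regions, 6322 of them on chromosome 11. Those present in every library were kept, 50771 in all, and 2617 of these lie on chromosome 11. The members were thus selected on measured values, the peak calls of each library, and on the chromosome, and presence in every library is not a result about them. On chromosome 11 the 664 regions with a peak in 3 libraries, just outside the rule, had a median of 136 counts per library with a peak, against 339 counts for the members.

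The nuclei were those of Panc1 tumours, an established line of human pancreatic ductal adenocarcinoma, grown in transplanted mice. Mice 12 and 31 had received the carrier alone, and mice 11 and 35 had received inflachromene, a compound whose known targets are HMGB1 and HMGB2, DNA-bending proteins of chromatin. All 4 mice carried the same line and each gave 1 library, so n = 2 per group and the mouse is the replicate. No source used here gives the dose, the duration, the host strain or the age of the mice. Nothing says whether a number marks a shared batch, and p-values measure the spread between these 4 samples. The tissue label reads pancreas, and whether host nuclei were removed is not stated. Of the genes that mark the line, KRT8, KRT18, KRT19, VIM and CAV1 each had a kept region and KRT7 and KRT17 had none. None of 6 acinar, 4 endocrine and 4 Schwann cell markers had one, against 2 of 6 endothelial, 1 of 6 T and NK cell and 1 of 4 B cell markers.

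ATAC-seq counts insertions of a transposase into open DNA, so the count of a region depends both on how open it is and on how many copies of that DNA the nucleus holds. The number of DNA copies was not measured, and in these counts it cannot be told apart from openness. Chromosome 11 is rich in genes. Its short arm carries HRAS, an imprinted growth cluster, a cluster of TRIM antiviral genes, the beta-globin genes and some of the olfactory receptor genes. Its long arm carries the cyclin gene CCND1, the YAP1 and BIRC locus, ATM, KMT2A and ETS1. Segments of the long arm around CCND1 and around YAP1 are known to be gained in carcinomas.

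The start sites of 7 genes that the results below turn on are printed first. Each run is the 250 bases before the start in RefSeq's table (GRCh38.p14), 5′ to 3′ on the gene's own strand. Capitals mark 4 motifs searched on both strands: CCAAT, the box bound by NF-Y, GGGCGG, the GC box bound by SP and KLF factors, TGACGTCA, the cAMP response element, and the core of the interferon-stimulated response element, which is GAAA, any 2 bases and GAAA again. The windows are TRIM6 at chr11:5596387-5596636 on the plus strand, SYT9 at chr11:7251654-7251903 on the plus strand, CEP57 at chr11:95789764-95790013 on the plus strand, JHY at chr11:122882509-122882758 on the plus strand, FADS1 at chr11:61817004-61817253 on the minus strand, IFITM3 at chr11:320861-321110 on the minus strand and BTBD18 at chr11:57751820-57752069 on the minus strand. The first 5 belong to the higher genes with the smallest p at a listed start (FAM76B, which shares the region of CEP57, is left out), IFITM3 stands for the interferon-induced genes of the short arm, and BTBD18 had the smallest p among lower genes.
TRIM6: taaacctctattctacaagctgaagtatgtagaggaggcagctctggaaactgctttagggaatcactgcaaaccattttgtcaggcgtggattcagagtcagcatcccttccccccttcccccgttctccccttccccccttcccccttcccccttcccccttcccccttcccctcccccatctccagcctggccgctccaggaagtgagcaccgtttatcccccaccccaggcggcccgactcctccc
SYT9: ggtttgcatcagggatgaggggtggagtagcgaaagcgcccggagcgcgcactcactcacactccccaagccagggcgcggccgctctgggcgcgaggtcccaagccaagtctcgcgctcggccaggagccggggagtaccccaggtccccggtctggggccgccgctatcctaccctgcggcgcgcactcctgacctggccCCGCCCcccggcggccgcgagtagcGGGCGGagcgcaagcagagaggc
CEP57: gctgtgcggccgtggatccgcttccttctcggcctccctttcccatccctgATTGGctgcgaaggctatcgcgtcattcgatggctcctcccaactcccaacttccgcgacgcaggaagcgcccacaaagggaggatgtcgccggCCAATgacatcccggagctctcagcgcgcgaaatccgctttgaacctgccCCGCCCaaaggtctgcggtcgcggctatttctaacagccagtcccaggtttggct
JHY: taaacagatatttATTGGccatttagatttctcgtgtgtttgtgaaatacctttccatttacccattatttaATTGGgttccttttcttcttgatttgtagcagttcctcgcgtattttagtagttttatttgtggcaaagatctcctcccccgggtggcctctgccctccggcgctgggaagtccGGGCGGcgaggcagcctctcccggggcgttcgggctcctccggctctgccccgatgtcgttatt
FADS1: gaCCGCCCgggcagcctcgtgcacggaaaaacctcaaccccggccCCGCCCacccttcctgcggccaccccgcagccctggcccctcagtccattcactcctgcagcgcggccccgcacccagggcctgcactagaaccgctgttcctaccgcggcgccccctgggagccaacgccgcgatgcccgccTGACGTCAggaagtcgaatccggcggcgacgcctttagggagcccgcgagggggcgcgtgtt
IFITM3: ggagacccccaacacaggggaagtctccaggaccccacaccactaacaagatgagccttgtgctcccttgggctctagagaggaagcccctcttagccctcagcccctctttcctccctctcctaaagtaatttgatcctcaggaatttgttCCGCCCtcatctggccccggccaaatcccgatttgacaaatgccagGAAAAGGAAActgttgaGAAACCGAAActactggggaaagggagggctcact
BTBD18: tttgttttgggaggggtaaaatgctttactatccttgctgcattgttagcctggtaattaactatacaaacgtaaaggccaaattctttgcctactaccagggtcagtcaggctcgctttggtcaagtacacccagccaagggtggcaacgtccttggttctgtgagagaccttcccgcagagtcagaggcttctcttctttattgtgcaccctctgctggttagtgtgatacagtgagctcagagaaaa

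A CCAAT box occurred in 33.0% of 27305 promoters of the table and in 37.7% of the 568 chromosome 11 genes that had a kept region at their start. The GC box occurred in 42.3% and 69.9%, the cAMP response element in 1.77% and 3.35%, and the interferon core in 3.07% and 2.82%. The 568 were kept for a region at their start, and the 27305 were not. These shares therefore do not compare chromosome 11 with other chromosomes. The median share of G and C letters was 58% in the 27305 promoters and 64.8% in the 568. TRIM6 and BTBD18 held none of the 4 motifs in this window. CEP57 held 2 CCAAT boxes and 1 GC box, and its start lies 232 bp from that of FAM76B, transcribed the other way, so both genes share 1 region. FADS1 held the only cAMP response element among the 7, and IFITM3 held 2 interferon cores. A match describes the letters and does not show that a factor was bound.

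Members lay between positions 196636 and 135076597 of GRCh38 and covered 2.48 Mb, with a median width of 935 bp. The widest stretch without a member, 8.67 Mb from 48173536 to 56841033, holds the centromere and was used to part the arms, which left 920 members on the short arm and 1697 on the long arm. Of the members, 770 (29.4%) lay within 1000 bp of a gene start (or of either end of a gene whose start the table does not list), 1005 (38.4%) in gene bodies and 842 (32.2%) between genes. Over all kept regions the shares were 27.3%, 37.5% and 35.1%.

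The libraries held between 27088391 and 39947056 counts over 2039 to 5186 barcodes, and most counts came in pairs, as both ends of a fragment were counted. Of all barcodes, 5103 had 10000 or more counts in kept regions (673 to 1678 per library), and these held 86.6% to 94.3% of the counts in kept regions. Carrier 12 and Inflachromene 11 had 1209 barcode sequences in common and the other pairs 25 to 357, and of the 1209, 1071 had 10000 or more counts in one library and under 2000 in the other. Among barcodes of 10000 or more counts, a pair of libraries shared 0 to 4. Summed marker levels, as counts scaled to the library's total over gene regions (CPM), lay between 222 and 226 in Carrier against 198 to 204 in Inflachromene for fibroblast markers (4 of 7 with a region; COL3A1, DCN and LUM without) and between 124 and 164 for myeloid markers (4 of 7; PTPRC, AIF1 and TYROBP without). Their part in the results below was not tested.

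Chromosome 11 took a larger share of the counts under inflachromene. Its members held 5.25% and 5.33% of all counts in kept regions in Carrier 12 and 31, and 5.75% and 5.69% in Inflachromene 11 and 35. Both Inflachromene libraries lay above both Carrier libraries. The group means were 5.29% ± 0.0576 and 5.72% ± 0.0408 (SD, n = 2 each). They stood 0.426 percentage points apart, or 0.11 on the log2 scale. Since the chromosome was singled out with earlier results of these data known, this share is given as a description and was not tested. In summed counts, more nuclei of one kind and more signal per nucleus cannot be told apart.

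The groups did not overlap for 9 of 23 chromosomes. By log2 ratio chromosome 11 came before chromosome 2 (0.10, from 6.35% to 6.80% of counts), and in percentage points chromosome 2 (0.458) came before chromosome 11. The median over windows of 5 Mb was 0.14 for chromosome 2 and 0.11 for chromosome 11. The largest differences in the other direction, in percentage points, were those of chromosome 17 (-0.272) and chromosome 7 (-0.267). On chromosome 11 the groups did not overlap on either arm. The short arm held 1.59% and 1.67% of counts in Carrier and 1.84% and 1.80% in Inflachromene, a log2 ratio of 0.16. The long arm held 3.66% and 3.67% in Carrier and 3.91% and 3.89% in Inflachromene, a log2 ratio of 0.09. The members at gene starts alone held 2.90%, 3.13%, 3.42% and 3.12% in the order Carrier 12, Carrier 31, Inflachromene 11, Inflachromene 35, and those elsewhere 2.34%, 2.20%, 2.32% and 2.57%, so the groups overlapped in each of these classes.

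Peak calls were also uneven between the groups. On chromosome 11, 277 merged regions had a peak in both Inflachromene libraries and in neither Carrier library, 4.38% of its merged regions against 3.64% over the genome. The reverse held for 73 regions, 1.15% against 1.60%. The number of peaks called differed between libraries, from 3732 to 4818 on chromosome 11, the largest number being in the deepest library, Inflachromene 35.

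The difference ran along nearly the whole chromosome. Counts were summed over windows of 5 Mb that held at least 10 kept regions and tested with edgeR's quasi-likelihood test. In 25 of the 26 windows of chromosome 11 the log2 fold change (Inflachromene over Carrier) was above 0, with a median of 0.11 and an SD over windows of 0.063. Over the 538 windows of other chromosomes the median was -0.01 and 46.1% lay above 0. Single chromosomes departed from that share: on chromosome 2, 41 of 48 windows lay above 0. On chromosomes 7, 15 and 17 it was 1 of 32, 1 of 17 and 2 of 17. A shift along most windows was thus not particular to chromosome 11. The groups did not overlap in 21 of the 26 windows of chromosome 11, against 32.8% of all 564 windows of the genome.

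No window passed edgeR's threshold of an adjusted p of 0.05, neither among the 26 of chromosome 11 nor among all 564 (0.0%). At an unadjusted p under 0.05 there were 7 of 26 windows, all higher, against 10.1% of all windows. DESeq2 called 4 of the 20 windows to which it gave an adjusted p, against 4.14% over the genome: 5 to 10 Mb, 10 to 15 Mb, 30 to 35 Mb and 95 to 100 Mb, with adjusted p between 0.0205 and 0.0488. The edgeR count was 3 without Inflachromene 11 (6.03% of all windows), 2 without Inflachromene 35 (1.77%), and 0 without either Carrier library.

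The 6 windows with the largest difference were those at 25 to 30 Mb (0.24 ± 0.076, SE), 95 to 100 Mb (0.22 ± 0.059), 10 to 15 Mb (0.19 ± 0.049), 5 to 10 Mb (0.18 ± 0.049), 30 to 35 Mb (0.17 ± 0.053) and 0 to 5 Mb (0.15 ± 0.069). In the window at 95 to 100 Mb the libraries stood at 754 and 749 CPM, scaled over all windows, in Carrier and 844 and 911 CPM in Inflachromene. The window with the most regions, 65 to 70 Mb with 285, went from 8558 and 8899 CPM to 9458 and 9290 CPM, a log2 fold change of 0.10 ± 0.047. The window with the fewest, 20 to 25 Mb with 22 regions, went from 250.1 and 249 CPM to 269 and 270.5 CPM (0.11 ± 0.067).

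A single window ran the other way. At 55 to 60 Mb, the first window of the long arm, the libraries stood at 1813 and 1779 CPM in Carrier and 1743 and 1643 CPM in Inflachromene, a log2 fold change of -0.09 ± 0.054. The groups did not overlap there, and the sign held in every alternative tried for this window.

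**Figure D1:**
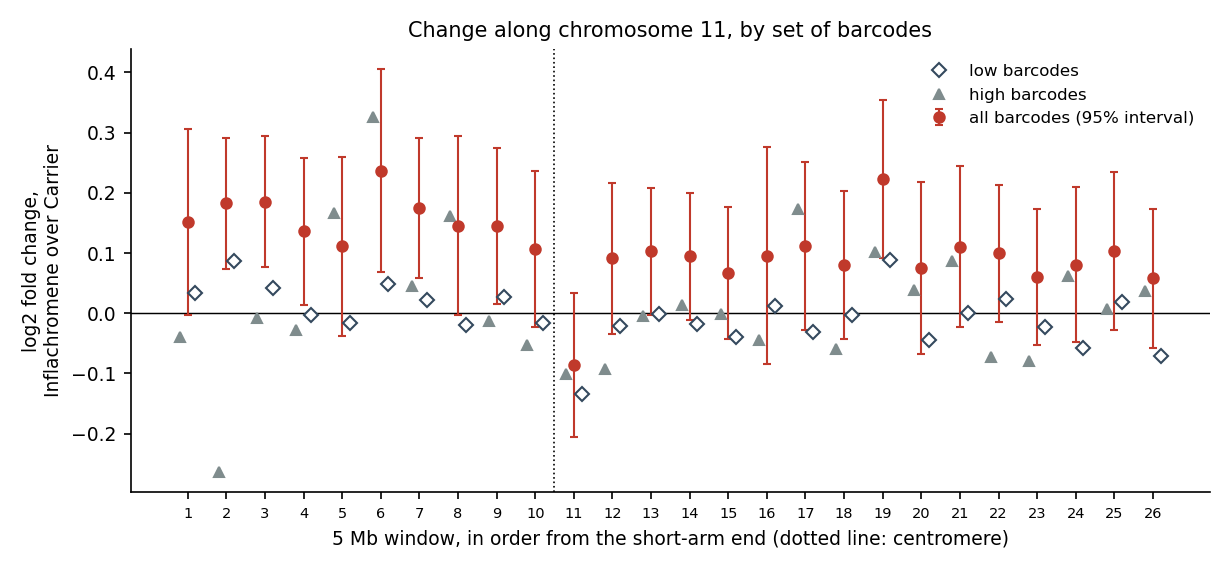
log2 fold change of Inflachromene over Carrier (vertical axis) in 26 windows of 5 Mb, numbered in order from the short-arm end; red points are all barcodes with 95% intervals from edgeR, diamonds and triangles the same fit on barcodes low and high on chromosome 11. Red points lie above 0 in every window but number 11 (55 to 60 Mb), while the diamonds scatter around 0.

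Within libraries the shift was not spread evenly over nuclei. Among the 5103 barcodes of 10000 or more counts, the chromosome 11 share per barcode had 2 modes, at 5.04% and 7.12%, a ratio of 1.41, with the least density between them at 6.4%. That value, chosen after seeing the data, was used to call a barcode low or high on chromosome 11, and 211 barcodes (4.13%) lay within 0.25 points of it. High barcodes made up 168 of 1678 in Carrier 12 (10.0%, with a 95% Clopper-Pearson interval from 8.62 to 11.5), and 60 of 673 in Carrier 31 (8.92%, 6.87 to 11.3). They made up 358 of 1094 in Inflachromene 11 (32.7%, 29.9 to 35.6) and 497 of 1658 in Inflachromene 35 (30.0%, 27.8 to 32.2). Both Inflachromene libraries lay above both Carrier libraries, by 21.9 percentage points between group means. The intervals cover counting of barcodes only, not the spread between mice.

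**Figure D2:**
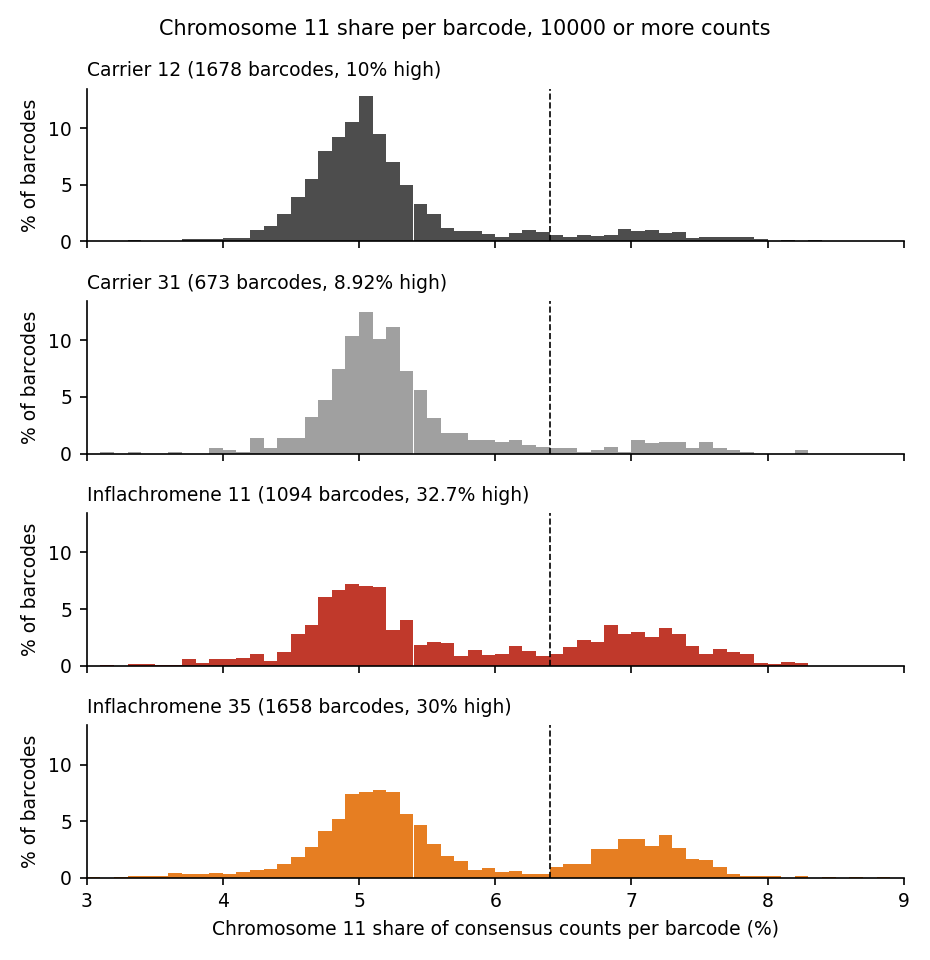
Share of counts on chromosome 11 per barcode (horizontal axis, in percent) against percent of barcodes (vertical axis, bins of 0.1 points) in each library, for barcodes of 10000 or more counts; the dashed line is the dividing value of 6.4%. All 4 libraries have a main peak near 5.04%, and the peak near 7.12% is larger in both Inflachromene libraries.

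Median depth was alike on both sides of that value, 15206 counts in low and 15159 in high barcodes of Carrier 12, 36100 and 35803 in Carrier 31, 18139 and 19387 in Inflachromene 11, and 18075 and 18139 in Inflachromene 35. Barcodes just under the depth minimum (from 8000 to under 10000 counts) were high in 8.94%, 26.1%, 25.9% and 24.1% of cases in the same order of libraries, and those just over it (from 10000 to under 12000) in 11.8%, 7.14%, 28.4% and 23.5%. The Carrier 31 values there rest on 23 and 14 barcodes. Medians over barcodes were 5.05% and 5.15% in Carrier and 5.31% and 5.30% in Inflachromene, a difference of 0.204 points that is smaller than the 0.432 points between means.

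Low barcodes alone gave a chromosome 11 share of 5.04% and 5.15% in Carrier and 5.09% and 5.08% in Inflachromene, a log2 ratio of -0.00. High barcodes alone gave 7.20% and 7.23% in Carrier and 7.13% and 7.11% in Inflachromene, a log2 ratio of -0.02. The dividing value bounds both sets, so these levels are a description. As arithmetic, the proportions of high barcodes with levels held at their means over libraries gave a group difference of 0.458 points, and the levels with proportions held equal gave -0.0264 points. In low barcodes 11 of the 26 windows lay above 0 (median -0.00), and in high barcodes 12 of 26 (median -0.00). No window passed in either set.

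**Figure D3:**
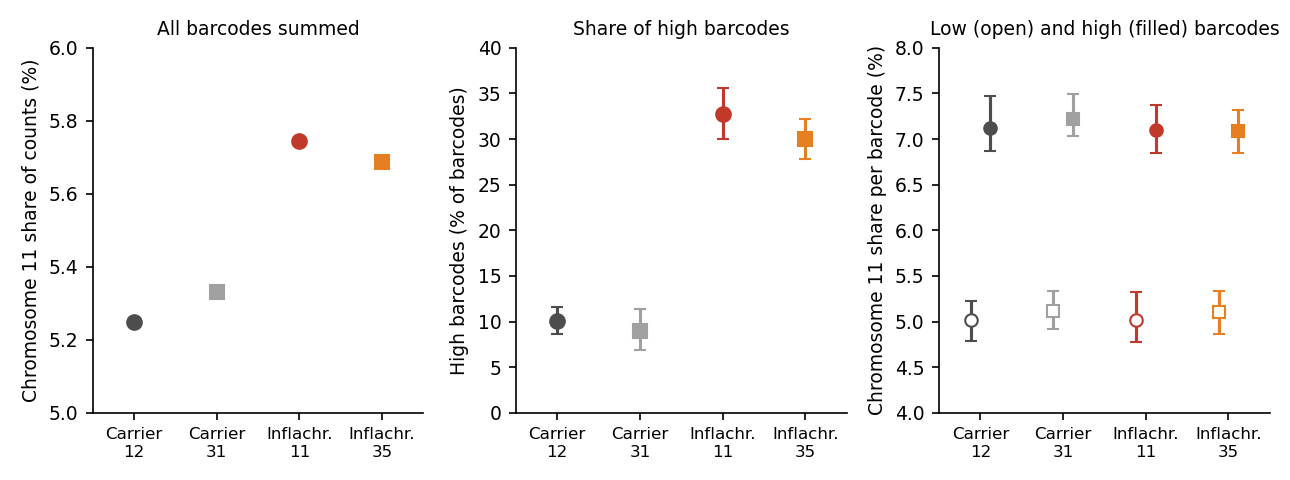
Left, chromosome 11 share of all counts per library (axis from 5% to 6%); middle, percent of barcodes high on chromosome 11 with Clopper-Pearson 95% intervals; right, median share per barcode with quartiles in low (open) and high (filled) barcodes. The Inflachromene libraries lie higher in the left and middle panels, at 30.0% and 32.7% high barcodes against 8.92% and 10.0%, while the right panel shows low medians of 5.01% to 5.11% and high medians of 7.09% to 7.22%.

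The spread over barcodes was ranked by chromosome. For chromosome 11 the coefficient of variation was the largest of 23 chromosomes in Inflachromene 11 (0.191) and Inflachromene 35 (0.184), the 4th in Carrier 12 (0.148) and the 10th in Carrier 31 (0.137). The SD over barcodes was 2.99 to 4.46 times that of counting alone, with counts taken to come in pairs as both ends of a fragment. All 23 chromosomes spread more than counting alone. By this ratio chromosome 11 was the 3rd in Carrier 12, the 5th in Carrier 31, the 2nd in Inflachromene 11 and the 1st in Inflachromene 35.

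In each library, barcodes high on both arms outnumbered those high on the short arm alone, and also those high on the long arm alone. When each arm was divided at its own minimum of density (2.07% for the short arm, 4.26% for the long arm), both arms were high in 144 barcodes of Carrier 12, 48 of Carrier 31, 296 of Inflachromene 11 and 435 of Inflachromene 35. The short arm alone was high in 48, 43, 93 and 33 barcodes, and the long arm alone in 45, 17, 51 and 71. Across barcodes of a library, the shares of both arms had a Pearson r of 0.66, 0.46, 0.67 and 0.73 and a Spearman rho of 0.39, 0.21, 0.65 and 0.63 (1678, 673, 1094 and 1658 barcodes, which share a library and its preparation).

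Reading one arm in barcodes divided on the other avoids measuring the choice itself. In barcodes divided on the short arm, the long arm was higher in the high set by 0.27 to 0.41 on the log2 scale over the 4 libraries, and 55 to 60 Mb by -0.07 to 0.21. In barcodes divided on the long arm, the short arm was higher by 0.53 to 0.64. Each of the 10 short-arm windows was higher in every library by that reading.

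Within libraries, high barcodes exceeded low barcodes by 0.56 to 0.71 on the log2 scale on the short arm and by 0.42 to 0.45 on the long arm. The ratio was not constant along the chromosome. In steps of 1 Mb it was averaged over the 4 libraries. The average was 0.13 at 57 to 58 Mb, 0.13 at 58 to 59 Mb and 0.21 at 59 to 60 Mb. It was then 0.61 in each of the steps from 60 to 63 Mb, and 0.42 to 0.48 from 64 to 68 Mb. Averages as low also occurred elsewhere, among them the steps that start at 88 Mb (-0.01), 106 Mb (0.20), 129 Mb (0.19) and 132 Mb (-0.36, on 8 regions). The low window at 55 to 60 Mb and the step at 60 Mb appeared in each library. The window at 55 to 60 Mb had ratios of 0.07, 0.18, 0.09 and 0.25, against 0.58, 0.61, 0.51 and 0.55 in the next window.

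The high barcodes of Carrier 12 differed from those of the other libraries at 6 to 11 Mb. There the ratio of high to low barcodes was 1.09 to 1.33 per step of 1 Mb in Carrier 12, and 0.35 to 0.85 in the other 3 libraries. In 51 of the 168 high barcodes of Carrier 12 (30.4%) these 5 Mb held 0.8% or more of all counts, a mark set after seeing the data. The same held for 2 of 60 (3.33%) in Carrier 31, 15 of 358 (4.19%) in Inflachromene 11 and 1 of 497 (0.201%) in Inflachromene 35, and for at most 2 low barcodes in any library. In high barcodes alone the groups differed by -0.26 on the log2 scale in the window at 5 to 10 Mb, and by 0.33 in that at 25 to 30 Mb. The value at 5 to 10 Mb includes Carrier 12 and was not computed without it.

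**Figure D4:**
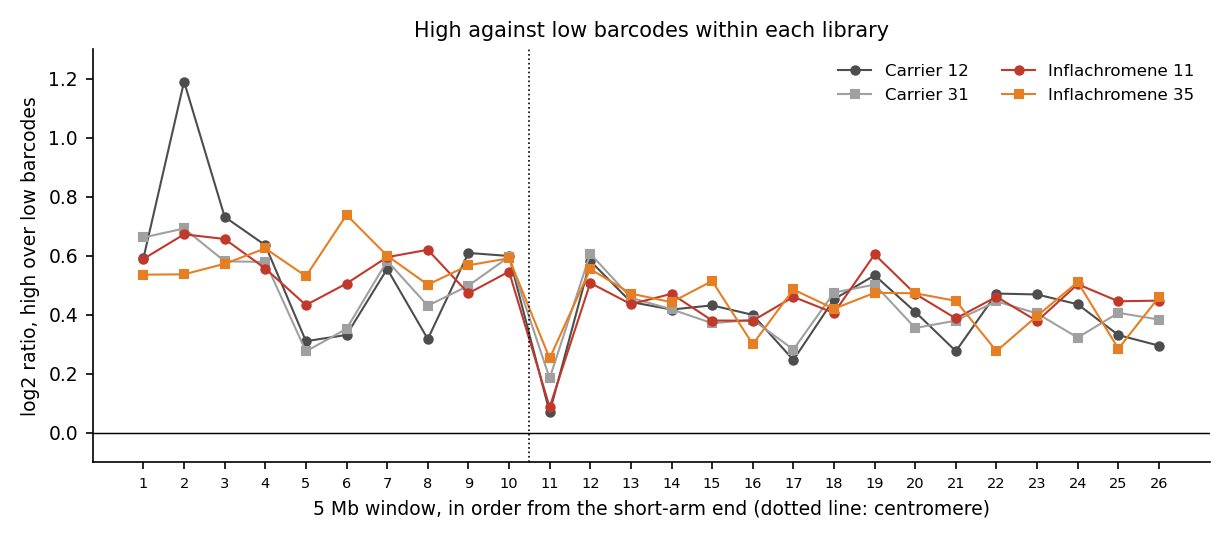
log2 ratio of high over low barcodes (vertical axis) within each library for the same 26 windows of 5 Mb, numbered from the short-arm end. The 4 libraries follow one another, all with a dip at window 11 (0.07 to 0.25) and 1 value set apart, Carrier 12 in window 2 at 1.19.

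High barcodes also differed away from chromosome 11. The short arm of chromosome 9 was lower in them by 0.46 to 0.58 on the log2 scale in all 4 libraries, chromosomes 17 and 18 were lower by 0.15 to 0.27, and the short arm of chromosome 3 was higher by 0.14 to 0.32. Barcodes were also divided at the minimum of density of 9p (1.24%) and of 3p (2.96%). Many lay near these values, 43.8% within 0.25 points of that for 9p and 21.1% within 0.25 points of that for 3p. Barcodes both low on 9p and high on 3p, a choice that does not read chromosome 11, made up 9.24% and 19.9% in Carrier and 34.5% and 43.5% in Inflachromene. Their median chromosome 11 share was 7.05%, 5.73%, 6.93% and 6.76% in Carrier 12, Carrier 31, Inflachromene 11 and Inflachromene 35, against 5.01% to 5.09% in the other barcodes. Of the barcodes high on chromosome 11, 75.6% to 83.9% were of this kind. Conversely, 81.9%, 34.3%, 75.9% and 57.8% of the barcodes of this kind were high on chromosome 11, in the same order of libraries.

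Single regions were tested next, over all 50771 at once. Of the 2617 members, 1868 (71.4%) had a log2 fold change above 0, against 50.7% of regions on other chromosomes, with medians of 0.12 and 0.00. The groups did not overlap for 992 members (37.9%, against 31.5% of all regions): 783 were higher under inflachromene and 209 lower, against 14.0% and 17.4% of all regions. edgeR called 0 members and 0 regions in all (0.0%). At an unadjusted p under 0.05 there were 183 members, 176 of them higher (all regions: 4.48%). DESeq2 called 3 of the 2343 members with an adjusted p (all regions: 0.0638%). The edgeR count was 217 without Inflachromene 11 (211 higher and 6 lower, 6.26% of all regions), 22 without Inflachromene 35 (20 higher and 2 lower, 0.589%) and 0 without either Carrier library, and the median was 0.08 without Inflachromene 11. Those fits leave 1 Inflachromene library, which is assumed to vary like the Carrier pair.

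The shift was seen in each kind of member. Above 0 lay 86.1% of members at gene starts (median 0.15), 68.1% of those in gene bodies (0.11) and 61.9% of those between genes (0.08), against 62.5%, 49.0% and 46.4% over all regions. It was also seen at each level of counts: 58.0% of members in the genome's lowest level class of regions, 65.1% in the middle and 88.6% in the highest, against 43.9%, 47.0% and 61.2% on other chromosomes, the classes having equal numbers of regions. When the log2 fold change of its own 5 Mb window was taken out of each region, 52.3% of members were above 0 with a median of 0.01. The window values come from the same counts, so a median near 0 follows from the step and is a description. In low barcodes alone, a set bounded by the dividing value, 55.2% of members were above 0, against 54.2% of all regions.

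The 6 higher and 6 lower regions with the smallest p were named, so their separation was fixed by the choice, and each had an edgeR adjusted p of 0.9996. The region at the start of SYT9, a synaptotagmin that senses calcium in vesicle release, held 5.39 and 6.0 CPM, scaled over all kept regions, in Carrier and 11.6 and 15.52 CPM in Inflachromene (log2 fold change 1.25 ± 0.23, and 1.07 with its window taken out). A region within RAB30, a small GTPase of the Golgi, at chr11:83051661-83052735 held 4.501 and 3.82 against 11.6 and 9.16 CPM (1.31). A region within GRIK4, a kainate receptor subunit, at chr11:120807157-120808114 held 8.27 and 5.81 against 15.7 and 16.6 CPM (1.19). In low barcodes alone the values were 0.61 for SYT9, 0.96 for RAB30 and 0.59 for GRIK4.

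A region between genes at chr11:86173884-86174834, 69919 bp from EED, which encodes a Polycomb subunit, held 12.4 and 13.4 CPM in Carrier and 22.2 and 32.0 CPM in Inflachromene (1.07 ± 0.21). DESeq2 called this region (adjusted p = 0.0203), that of GRIK4 (0.0327) and that of SYT9 (0.0360). The other named higher regions were at the start of TRIM6 (0.95) and at chr11:1826677-1827605, 4179 bp from SYT8 (0.79).

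The lower regions had smaller differences. A region within PTPN5, a neuronal phosphatase gene, at chr11:18775425-18776305 held 6.62 and 5.92 CPM in Carrier and 3.77 and 3.71 CPM in Inflachromene (-0.75 ± 0.24). One within ADAMTS15, a secreted metalloprotease gene, at chr11:130449816-130450714 held 28.5 and 28.7 against 21.8 and 19.3 CPM (-0.48). The others lay within PCNX3 (-0.59), DKK3, which encodes a secreted Wnt modulator (-0.68), and PRR5L (-0.68), and 12360 bp from APLNR, the apelin receptor gene (-0.63). By edgeR their unadjusted p lay between 0.0119 and 0.0371, and neither edgeR nor DESeq2 called a lower member over all 4 libraries.

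Genes were read at 1 region each, within 1000 bp of the start where RefSeq's table of promoters lists it (568 genes on chromosome 11) and otherwise of either outer end (154 genes). These 722 of the 1301 protein-coding genes of the chromosome use 625 regions, since close neighbours share one. Of the 722 genes, 584 (80.9%) were above 0 with a median of 0.10, against 47.9% of genes on other chromosomes with a median of -0.01. The groups did not overlap for 385 genes (53.3%, against 34.5% of all 12458 genes tested), 357 higher and 28 lower, against 17.7% and 16.8% of all genes. edgeR called 0 of them and 0 in all (0.0%). At an unadjusted p under 0.05 there were 107 genes, 106 higher (all genes: 5.78%). DESeq2 called 6 genes, all higher (all genes: 0.209%), and the edgeR count was 5 without Inflachromene 11 (0.49% of all genes), 0 without any other library.

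In low barcodes alone 47.8% of the 722 genes were above 0, and with window values taken out 49.4%. The dividing value bounds the low set, and the window values come from the same counts. Values near 0 were thus largely set by these steps, and both figures are descriptions. The barcodes were divided on counts that include these gene regions, so a higher level in high barcodes was fixed by the choice and is a description. Between high and low barcodes of the same library 717 of the 722 genes were higher in the high barcodes on average, with a median of 0.49, and 643 were higher in all 4 libraries.

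Gene values below are CPM over gene regions, in the order Carrier 12, Carrier 31, Inflachromene 11, Inflachromene 35. Of the genes named below, CAVIN3, NRXN2, TNKS1BP1, MS4A15, PHLDA2, CCND1, SHANK2, BARX2, ETS1, FHIP1B and WEE1 were read at an outer end. An outer end need not be the start of the gene. The region shared by CEP57, a centrosome and spindle gene, and FAM76B held 151, 146, 198 and 195 CPM (0.40 ± 0.067, edgeR adjusted p = 0.173, DESeq2 adjusted p = 0.00240). TRIM6, a ubiquitin ligase gene of the antiviral TRIM family whose start also serves the readthrough gene TRIM6-TRIM34, held 18.9, 20.6, 37.6 and 36.2 CPM (0.90 ± 0.16). SYT9 held 10.3, 10.4, 19.2 and 29.1 CPM (1.23 ± 0.24). Inflachromene 35 was the highest for SYT9, and the groups were clear of one another for all of these.

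CAVIN3, which encodes a coat protein of caveolae, held 28.5, 34.2, 49.2 and 52.3 CPM (0.70), read at an outer end. JHY, a gene of ciliated cells, held 28.8, 24.0, 39.01 and 46.8 CPM (0.70), and FADS1, a desaturase of polyunsaturated fatty acids, 54.2, 56.7, 71.5 and 72.7 CPM (0.38). With the window taken out edgeR called 0 of the 722 genes (smallest adjusted p = 0.801), and the values of these genes, which were chosen for a small p, were 0.18 for CEP57, 0.72 for TRIM6, 0.51 for CAVIN3, 1.04 for SYT9, 0.62 for JHY and 0.29 for FADS1. In low barcodes alone they were 0.32, 0.68, 0.51, 0.54, 0.52 and 0.28. DESeq2 called TRIM6 and CAVIN3 (adjusted p = 0.00240 and 0.0256) and SYT9 (0.00607), but not JHY or FADS1. The rest of the 6 genes it called were CEP57 and FAM76B, at 1 region, and TRIM6-TRIM34, at that of TRIM6. In the test over all regions DESeq2 did not call the TRIM6 region (adjusted p = 0.0758).

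Lower genes were few. BTBD18, a gene of transposon silencing in the germ line, held 15.54, 12.3, 9.44 and 9.38 CPM (-0.57 ± 0.24), TM7SF2, a sterol reductase gene, 64.3, 61.7, 54.2 and 55.6 CPM (-0.20), and CREBZF, a bZIP factor gene, 18.2, 14.7, 12.03 and 12.2 CPM (-0.45). EXPH5 held 26.6, 25.7, 11.3 and 24.0 CPM (-0.56), and Inflachromene 11 alone was far below the rest. NRXN2 (-0.23), TNKS1BP1 (-0.16), DTX4 (-0.22) and MS4A15 (-0.36) made up the 8 named. BTBD18, TNKS1BP1 and DTX4 lie in the window at 55 to 60 Mb. No lower gene was called by either tool.

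**Figure D5:**
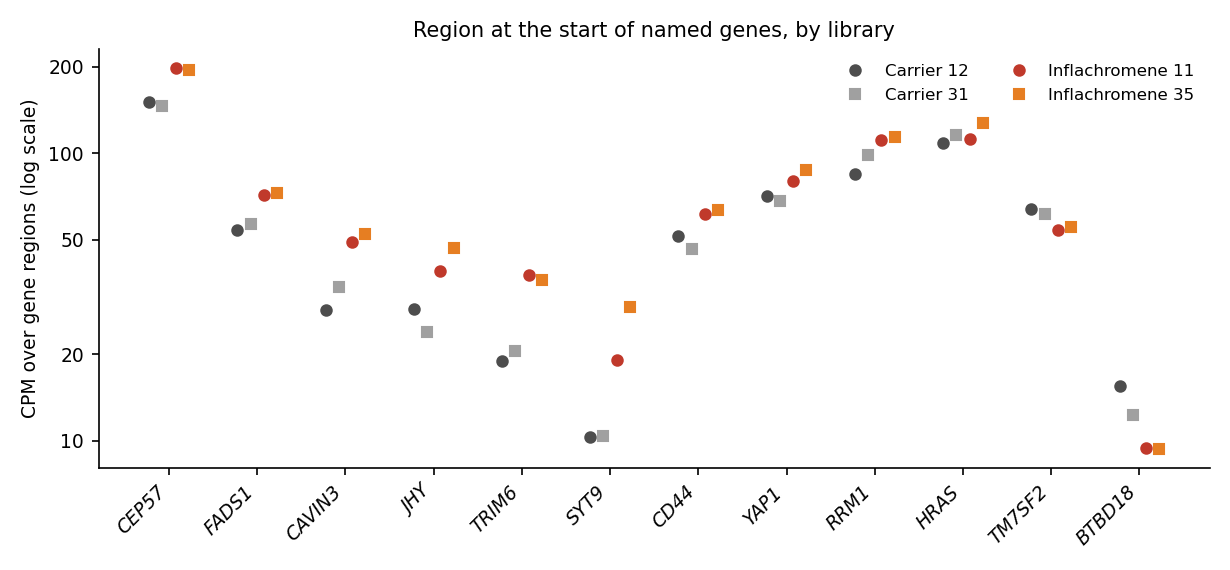
CPM over gene regions (vertical axis, log scale) at 12 named genes; each point is 1 library, grey for Carrier and coloured for Inflachromene. The groups are apart for every gene shown but HRAS, with the Inflachromene points higher except at TM7SF2 and BTBD18.

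Members of the interferon and TRIM lists showed the largest differences among the lists of genes. All 7 measured genes of the TRIM list were above 0, with a median of 0.26, against a median of 0.10 over the 722 genes and of -0.00 over all 12458 genes. TRIM66 was read at a region shared with RPL27A, a gene of the housekeeping list (0.17). TRIM34 held 9.73, 14.5, 18.0 and 23.2 CPM (0.77), TRIM21 30.9, 37.0, 43.8 and 55.6 CPM (0.55), TRIM68 had a value of 0.26 and TRIM5 of 0.24. IFITM3, an interferon-induced membrane protein gene, held 27.7, 24.4, 31.8 and 38.8 CPM (0.44). The interferon list had 5 of 8 genes measured, all above 0, with a median of 0.44, and with windows taken out 0.29. TRIM5, TRIM21 and TRIM34 stand in both lists. The median of the TRIM list was 0.11 with windows taken out and 0.15 in low barcodes. None was called by edgeR. Of the 7 TRIM genes 6, TRIM66 among them, had an unadjusted p under 0.05, against 14.8% of chromosome 11 genes and 5.78% of all genes.

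On 11p15 the imprinted and growth list had 9 of 10 measured genes above 0 (median 0.20), among them PHLDA2 (0.35), a placental growth restrictor, CARS1 (0.26) and NAP1L4 (0.24). All 13 measured genes of the RAS, apoptosis and signalling list were above 0 (median 0.18), led by RNH1, an inhibitor of ribonucleases, with 154, 178, 206 and 210 CPM (0.32), and ILK (0.24). HRAS itself held 109, 116, 112 and 127 CPM (0.09 ± 0.083), with overlapping groups and a value of -0.00 without Inflachromene 35.

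Genes of DNA replication, repair and checkpoints were above 0 in 15 of 18 cases (median 0.11). Over all 722 measured genes of the chromosome the share above 0 was 80.9% and the median 0.10, near those of this list. That share and median are to be read beside each list that follows. The groups did not overlap for 12 of the 18, where the share was 53.3% over chromosome 11 genes and 34.5% over all genes. RRM1, the large subunit of ribonucleotide reductase, held 85.0, 99.03, 111 and 114 CPM (0.29 ± 0.088). RNASEH2C (0.28), CHEK1 (0.20) and H2AX (0.19) followed, and ATM, which shares its region with NPAT, held 224, 231, 255 and 237 CPM (0.11). The 22 measured genes of lipid, iron and energy metabolism were above 0 in 21 cases (median 0.15), with FADS1, GSTP1 (0.25), LDHA (0.22) and PC (0.17) in front. All 7 measured stress and folding genes were above 0 (median 0.18), among them SERPINH1 (0.21), STIP1 (0.18) and HSPA8 (0.13).

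Housekeeping genes were all above 0, 15 of 15, with a median of 0.13, among them COX8A (0.21) and RPS3 (0.16). With windows taken out, a step that centres values near 0 by construction, their median was -0.02. Chromatin regulators were above 0 in 10 of 13 cases (median 0.07), with EMSY at 0.13, KDM2A at 0.12 and KMT2A, a histone methyltransferase gene, at 0.13 ± 0.093 from 105, 128, 130 and 125 CPM, and at -0.00 without Carrier 12. All 7 genes of the NF-kB and AP-1 list were above 0 (median 0.16), with RELA at 0.16 and BIRC3, an inhibitor of apoptosis induced by NF-kB, at 0.28 with Inflachromene 35 and at -0.10 without it. The 4 measured autophagy genes were all above 0 (median 0.11). None of these lists held a gene that edgeR called.

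The amplicon genes of 11q13 were uneven. Of 13 measured, 10 were above 0 (median 0.10). CCND1, the cyclin D1 gene, read at an outer end, held 64.8, 66.0, 62.2 and 66.5 CPM (-0.02 ± 0.087), while PPFIA1, a neighbour that often gains copies with it, held 90.2, 85.1, 109 and 109 CPM (0.32 ± 0.077), LTO1 0.27 and SHANK2 0.53. The groups overlapped for CCND1, which was at 0.02 without Inflachromene 11, and not for the other 3. On 11q22 YAP1, the effector of the Hippo pathway, held 71.0, 68.1, 79.9 and 87.3 CPM (0.27 ± 0.086), its neighbour BIRC2 had a value of 0.05 (-0.01 without Inflachromene 35), 5 of the 6 measured genes of that list were above 0 (median 0.04), and 8 of the 14 genes of that list, all of them matrix metalloproteinases, had no region.

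Cell surface genes were above 0 in 9 of 12 cases (median 0.07), led by CD44, the hyaluronan receptor, with 51.4, 46.5, 61.4 and 63.8 CPM (0.35 ± 0.098), and CD82 (0.29). The list of ETS and developmental factors was mostly below 0, in 5 of 7 cases (median -0.05). BARX2, read at an outer end, was at -0.27, ELF5 at -0.13 and ETS1, also read at an outer end, at 0.04 ± 0.24 from 10.9, 12.3, 10.3 and 13.5 CPM. Single libraries set the sign of the last 2: ELF5 was at 0.02 without Carrier 12, and ETS1 at -0.05 without Carrier 12 and at -0.17 without Inflachromene 35. MALAT1, an abundant nuclear RNA, held 65.5, 70.9, 77.4 and 69.0 CPM over all regions (0.10 ± 0.15), with overlapping groups, and NEAT1 had no region.

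Of all 1301 genes 722 were measured, and tissue-restricted families were read against that. None of 5 beta-globin genes and 2 of 171 olfactory receptor genes had a region, nor did 6 of 7 inflammatory caspase genes of 11q22, 3 of 5 mucins and 2 of 4 apolipoprotein genes. The caspase measured, CASP4, had a value of 0.07, the 2 mucins had a median of 0.00, the apolipoproteins of 0.05 and the olfactory receptors of 0.11. Of the markers of other cell types on this chromosome, 2 of 8 T and NK cell, 1 of 3 B cell, 2 of 6 myeloid 1 of 2 endothelial and 2 of 6 stromal, nerve and endocrine genes had a region, with medians of 0.15, -0.14, -0.16, 0.04 and 0.06. CD3D, CD3G, MS4A1 and MS4A7 were among those without one.

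The 8 genes with the most counts at their region shared in the shift to differing degrees. NUP98 and PGAP2, at 1 shared region, held 298, 348, 342 and 357 CPM (0.11), FHIP1B 251, 283, 316 and 297 CPM (0.20), ZNF143 231, 288, 292 and 302 CPM (0.19), TMEM80 237, 276, 282 and 279 CPM (0.13) and WEE1, a kinase that holds back mitosis, 230.0, 246, 278 and 262 CPM (0.18). SF1 (0.04) and OSBP (-0.00), which lies in the window at 55 to 60 Mb, differed by less than their SE of 0.072 and 0.069. Their signs changed when single libraries were left out: SF1 was at -0.03 without Inflachromene 35, and OSBP at 0.04 without Carrier 31 and 0.03 without Inflachromene 35. With its window taken out, each of the first 6 lay between -0.04 and 0.02.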

How the data were processed

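Per the file headers and the submitters' processing notes, the deposited matrices hold counts per peak and barcode made by the authors with Cell Ranger ATAC 2.1.0 on GRCh38, from 10x Chromium single-cell ATAC libraries, with peaks called in each library. Peaks with 1 bp in common were merged, and the counts of a library's peaks were added up per merged region. Regions, windows of 5 Mb with at least 10 regions, and gene regions (within 1000 bp of the start, or of an outer end) were each tested over the whole genome, 2 libraries against 2, with edgeR 4.0.16 in R 4.3.3 (TMM scaling, quasi-likelihood, Benjamini-Hochberg adjustment, threshold 0.05), and DESeq2 1.42.0 was an alternative. edgeR's filter on low counts removed 0 features. A positive log2 fold change is higher under inflachromene. Named were up to 6 regions and 8 genes in each direction by smallest p among those whose groups do not overlap, the 8 genes with the most counts, 8 set genes (HRAS, RRM1, CD44, YAP1, ATM, KMT2A, CCND1 and ETS1, with the RNA genes MALAT1 and NEAT1), and up to 4 genes of each list. Members, lists and rules were chosen with earlier results of these data known. The barcode minimum was 10000 counts. The dividing value of 6.4%, the 0.8% mark and the results that use them were added after seeing the data. Window-centred values subtract the log2 fold change of the region's own window, fitted on the same counts, so as a set they centre near 0 by construction. On simulated counts edgeR recovered 46.5% of 200 regions changed by 1 on the log2 scale (50771 regions), and 97% of 200 such genes (12458 genes). Both ends of a fragment can be counted, so counts are not independent molecules. Other alternatives are in the closing section. The summed level of the line's markers is not reported here.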

Additional observations from a re-analysis of the deposited data

How the results depend on the processing

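No paired analysis was possible because the replicate numbers (12, 31, 11 and 35) are not shared between the groups. The number of chromosome 11 features called, 0 by edgeR, was 3 regions, 4 windows and 6 genes by DESeq2, ranged over 0 to 217 regions, 0 to 3 windows and 0 to 5 genes when 1 library was left out, and was 0 under each other setting run. The causes of these shifts were not tested. The share difference of 0.426 points was 0.347 when matrix entries above 0 were counted. The difference in medians per barcode (0.204 points) was 0.344 at a minimum of 20000 counts and 0.432 for means. The difference in high barcodes (21.9 points) was 17.1 with the dividing value 0.4 points higher and 24.5 at a minimum of 20000 counts. With windows taken out, the gene median was -0.0014, NUP98 and PGAP2 were at -0.039, TMEM80 at -0.025, SF1 at -0.055, OSBP at 0.085, HRAS at -0.059, ETS1 at -0.067 and BIRC2 at -0.031. CCND1 was at 0.013 in barcodes of 10000 or more counts and KDM2A at -0.031 without barcode sequences found in 2 libraries, an alternative added after seeing the data. Leaving out 1 library gave -0.032 to 0.098 for SF1, -0.037 to 0.036 for OSBP, -0.0024 to 0.18 for HRAS, -0.0025 to 0.27 for KMT2A, -0.073 to 0.024 for CCND1, -0.17 to 0.21 for ETS1, -0.095 to 0.57 for BIRC3, -0.0065 to 0.092 for BIRC2 and -0.26 to 0.015 for ELF5. Of 822 values of 84 named genes, regions and windows under alternatives, 768 kept direction and side of the threshold, 33 passed it newly and 21 changed sign. With 2 libraries a group, a 95% interval within 1 on the log2 scale was reached for 88.0% of members.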
